A study of Rattus norvegicus with 10 samples.

Results

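The D cyclins, their kinases and the kinase inhibitors form the gate that a cell passes when it leaves G1, the phase before DNA replication. The 10 genes Ccnd1, Ccnd2, Ccnd3, Cdk4, Cdk6, Cdkn1a, Cdkn1b, Cdkn2a, Cdkn2b and Cdkn2c were chosen by name, and every probeset whose single platform symbol was one of them was kept. All 10 genes were on the array, with 15 probesets, out of 14217 genes with a symbol. The RNA came from islets, the endocrine cell clusters of the pancreas, of male Wistar rats aged 7 weeks, collected after 10 days on a cafeteria diet with 66% of its calories as fat or on a standard chow with 8%. There were 5 arrays of independent samples for the cafeteria diet and 5 for the standard chow, on the 1-colour Affymetrix Rat Genome 230 2.0 array. The rats carried no transgene, islets were picked by hand after collagenase digestion, and each array holds all cell types of the islet. The diets follow the array titles. The diet entry among the characteristics of each sample names the other diet, and with that entry every direction below would turn while sizes and p-values would stay.

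D cyclins are made in response to growth signals and bind the kinases Cdk4 and Cdk6. The complexes phosphorylate the retinoblastoma protein, which then releases the E2F factors that switch on genes of DNA replication. Inhibitors of the INK4 family (Cdkn2a, Cdkn2b, Cdkn2c) bind the kinases, and those of the CIP/KIP family (Cdkn1a, Cdkn1b) bind the cyclin and kinase complexes. Adult beta cells divide rarely. In mice, loss of Cdk4 or of Ccnd2 shrinks the beta cell mass after birth, and Cdkn1b and Cdkn2a restrain beta cell division.

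All 7 beta cell markers (Ins1, Ins2, Iapp, Pdx1, Mafa, Nkx6-1 and Slc2a2) were bright, between percentiles 90.7 and 100 of the probesets. Some markers of other cell types were bright as well, and others were dim. Other endocrine markers lay between percentiles 99.6 (Chga) and 100 (Gcg), and acinar markers between 77.8 (Cel) and 93.9 (Prss1). Stromal markers lay between 68.4 (Pdgfrb) and 96.0 (Col3a1), and endothelial markers between 61.3 (Vwf) and 96.3 (Kdr). Immune markers ran from 38.4 (Cd3e) to 96.3 (Cd74), and duct markers from 17.9 (Cftr) to 95.2 (Krt7). Member levels are therefore not levels of beta cells alone. Median signals ran from 150.9 to 173.2 over the 10 arrays. Signals were compared as log2(signal + 14.15), so differences of dim probesets are understated. A probeset was tested where its mean log2 value lay above 6.77, the 40th percentile of the 31042 probesets that are not controls. This held for 10 of the 15 member probesets and for 7 of the 10 genes. Cdk6, Cdkn2a and Cdkn2b had no probeset above that level. Each gene is described from its brightest probeset, and the others are given beside it.

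No member passed the test between the diets. With limma, 0 of 10 member probesets had an adjusted p under 0.05, as did 0 of all 18625 probesets tested (0%). At an unadjusted p under 0.05 the count was also 0 of 10, where 10.4% of all probesets reached it, 5.51% with the cafeteria group higher and 4.91% with it lower. The groups overlapped at each of the 10, while 2.44% of all probesets had no overlap between the 5 cafeteria and the 5 standard arrays. Among the 7 genes tested, 5 were higher and 2 lower in the cafeteria group, with a median log2 difference of 0.08; of all probesets tested 51.4% were higher, with a median of 0.01. The members' median ran from 0.02 (without standard replicate 1) to 0.12 (without standard replicate 4) when 1 array was left out, and was 0.03 with array weights. The limma adjusted p ran from 0.550 for Ccnd2 to 0.996 for Cdkn2c. These are levels in whole islets, in which fewer cells of a type and less RNA per cell cannot be told apart.

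**Figure D1:**
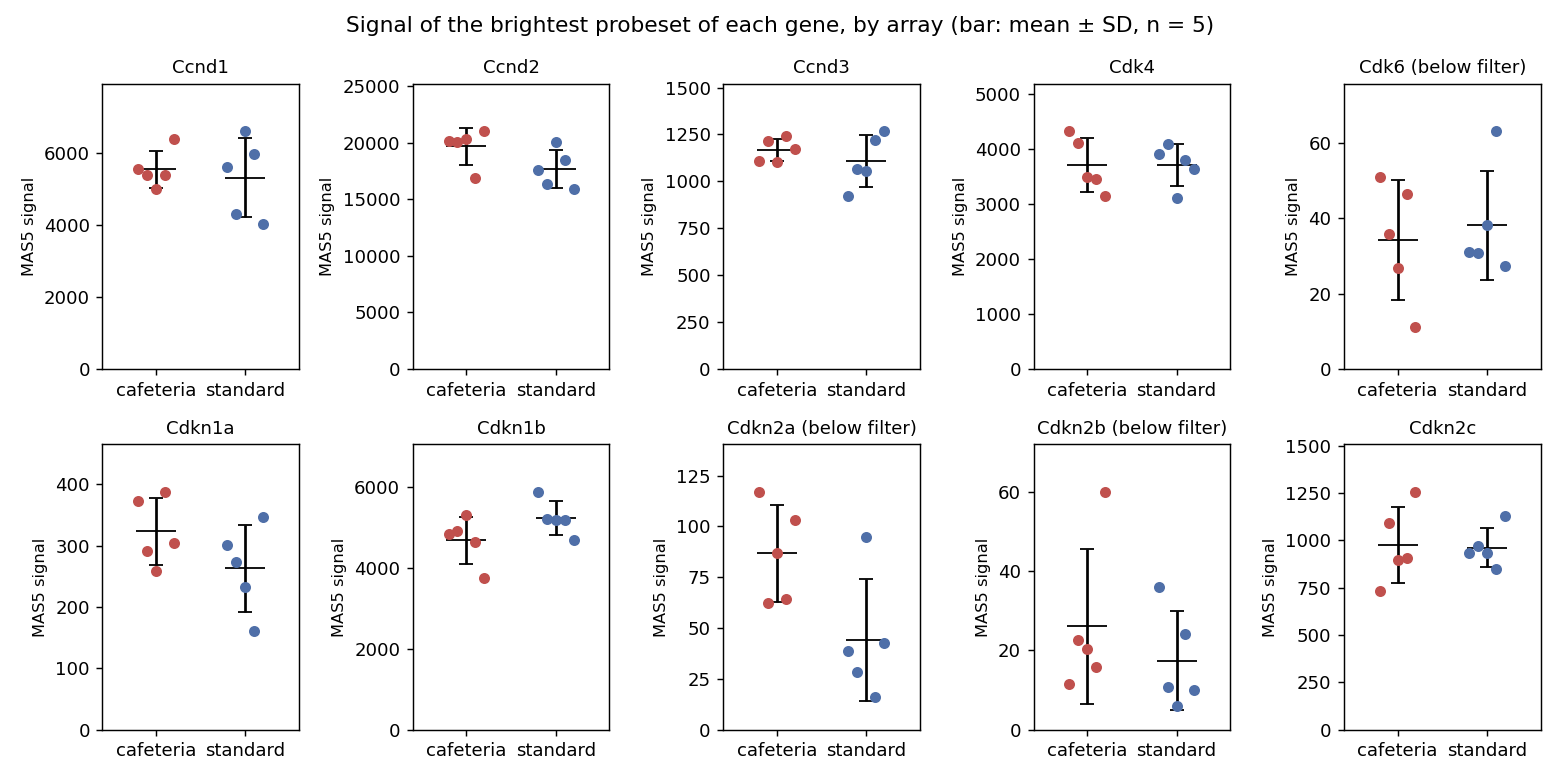
Linear MAS5 signal (y axis, from 0) of the brightest probeset of each of the 10 genes, with 1 point per array, cafeteria arrays left and standard arrays right, and the mean ± SD of 5 arrays in black. The groups overlap in all 10 panels; in the Cdkn2a panel the cafeteria arrays lie between 62.5 and 117.0 and 4 of the 5 standard arrays lie below them.

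Ccnd2, the D cyclin that mouse beta cells depend on most after birth, had the lowest adjusted p of the 7. Its signals in cafeteria replicates 1 to 5 were 20139, 20053, 20391, 16887 and 21041. Those in standard replicates 1 to 5 were 17590, 16408, 20046, 18507 and 15942. Of the cafeteria arrays, 4 lay above all 5 standard arrays, and cafeteria replicate 4 lay among the lower standard ones. The means were 19702 ± 1620 in the cafeteria group and 17698 ± 1653 in the standard group (SD, n = 5 each). On the log2 scale this was a difference of 0.16 (SE 0.09), or 1.11-fold, and the 95% confidence limits were 0.969-fold and 1.28-fold. The exact two-sided permutation test gave p = 0.0873. In limma the unadjusted p was 0.118, and the p adjusted over all probesets tested was 0.550. None of these was under 0.05. The signal lay at percentile 99.8 of the probesets, and arrays can compress a difference between bright signals. The highest signals on the arrays were greater, from 36433 to 49016, and compression was not tested. With quantile normalization the difference was 0.06.

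Ccnd1, the D cyclin most often raised by growth factors, was read by 3 probesets, all above the filter. The brightest (1383075_at) had signals of 5556, 5379, 4997, 5401 and 6389 in cafeteria replicates 1 to 5. In standard replicates 1 to 5 it had 5626, 4305, 6609, 5962 and 4042. The cafeteria arrays fell inside the range of the standard arrays, which spread more widely, with a coefficient of variation of 9.29% in the cafeteria group and 20.7% in the standard group. Between the diets it differed by 0.08 on the log2 scale (SE 0.14, limma adjusted p = 0.852).

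The other Ccnd1 probesets had the opposite spread. Probeset 1371643_at read 2667, 2963, 2482, 3381 and 5043 in the cafeteria arrays. It read between 2819 and 3382 in the standard arrays, a coefficient of variation of 31.1% for the cafeteria diet and 7.53% for the standard chow. Its log2 difference of 0.08 (SE 0.17, limma adjusted p = 0.883) rested on cafeteria replicate 5, without which it was −0.08. Probeset 1371150_at averaged 2148 ± 361 in the cafeteria group and 1878 ± 179 in the standard group (SD, n = 5 each), a log2 difference of 0.18 (SE 0.12, limma adjusted p = 0.589). In that probeset all 5 cafeteria arrays lay above the standard median of 1818, with a lowest value of 1832, and cafeteria replicates 4 and 5 lay above every standard array. The 3 probesets thus shared a direction with all arrays in the fit, but not which arrays were high: standard replicate 3 was the highest of 10 in the first and among the lower arrays in the others.

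Ccnd3, the third D cyclin, had signals of 1109, 1213, 1105, 1239 and 1173 in the cafeteria arrays. The standard arrays read 922, 1064, 1057, 1220 and 1267. The highest and the lowest of the 10 values were both standard arrays. Ccnd3 differed by 0.09 on the log2 scale (SE 0.10, limma adjusted p = 0.761), and the cafeteria group averaged 1168 ± 60.3 against 1106 ± 138.8 in the standard group (SD, n = 5 each). Without standard replicate 1, the lowest array, the difference was 0.02.

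Cdk4, the kinase partner that mouse beta cells rely on, had equal means. It averaged 3711 ± 496 in the cafeteria group and 3712 ± 376 in the standard group (SD, n = 5 each). The cafeteria arrays ran from 3142 to 4330, with replicates 1 and 2 the highest of all 10, and the standard arrays from 3104 to 4096. The difference was 0.00 on the log2 scale, with 95% confidence limits of −0.25 and 0.24, or 0.843-fold and 1.18-fold (limma adjusted p = 0.993). Cdk6, the other kinase, was dim. Its signals ran from 11.0 to 51.0 on cafeteria arrays and from 27.5 to 63.2 on standard arrays, at percentile 19.6 of the probesets. The log2 difference of −0.15 (SE 0.27) was fitted without the filter, with a limma adjusted p of 0.901. The difference was 0.07 without cafeteria replicate 5 and 0.00 without standard replicate 4. No detection calls were among the values used, so whether Cdk6 lay above background is unknown.

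**Figure D2:**
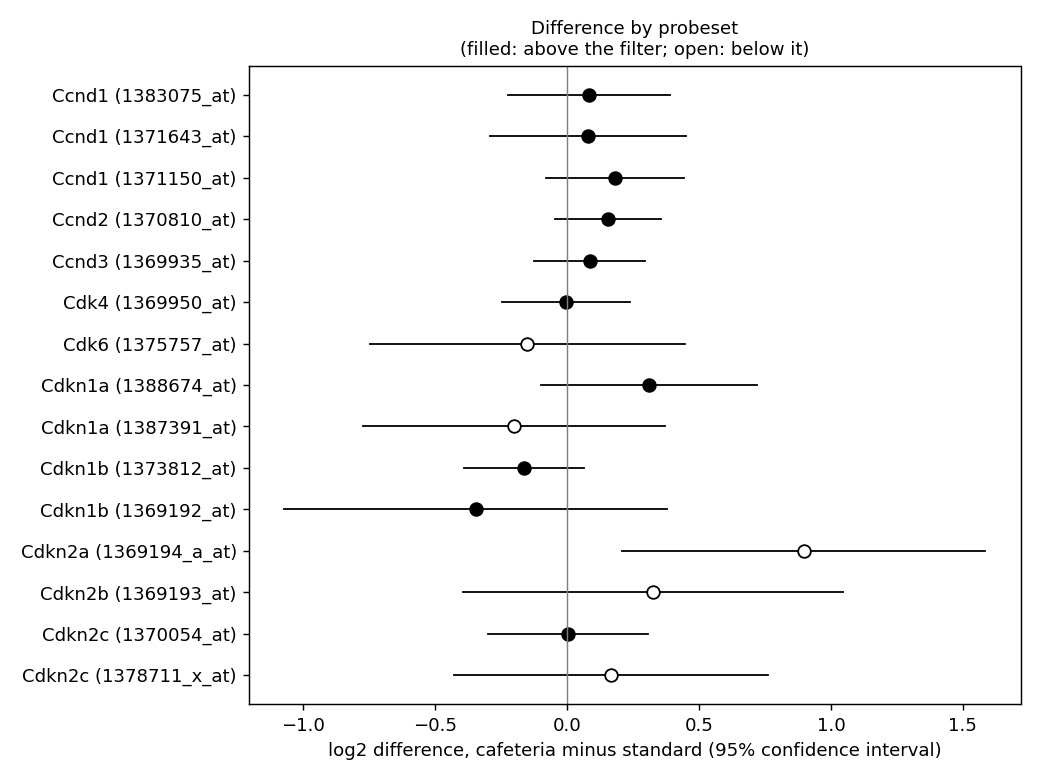
Log2 difference, cafeteria minus standard (x axis), of all 15 member probesets with 95% confidence intervals; filled points were tested above the filter, open points lie below it. All 10 filled intervals cross 0, and the interval of Cdkn2a, an open point at 0.90, does not.

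Cdkn1b, which encodes p27 and holds cyclin and kinase complexes inactive in resting cells, was the inhibitor lowest relative to the standard group. Its brightest probeset (1373812_at) had 4833, 4907, 5298, 4622 and 3739 in cafeteria replicates 1 to 5. In standard replicates 1 to 5 it had 5869, 5212, 5167, 5181 and 4682. Only cafeteria replicate 3 lay above the standard median of 5181, and cafeteria replicates 4 and 5 lay below every standard array. The means were 4680 ± 580 in the cafeteria group and 5222 ± 423 in the standard group (SD, n = 5 each). This was a log2 difference of −0.16 (SE 0.10), with 95% confidence limits of −0.39 and 0.06. The exact two-sided permutation p was 0.135 and the limma adjusted p 0.573. Without cafeteria replicate 5 it was −0.09. The dimmer probeset 1369192_at ran from 91.7 to 276.6 on cafeteria arrays and from 135.5 to 362.6 on standard arrays. Its log2 difference of −0.35 had the same sign and a wide error (SE 0.33, limma adjusted p = 0.712).

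Cdkn1a, which encodes p21 and is the inhibitor that p53 induces, had the greatest difference of the 7 genes tested and also the greatest SE. Its brightest probeset read 373.1, 292.0, 259.6, 387.8 and 303.9 in the cafeteria arrays. The standard arrays read 300.6, 273.2, 232.5, 161.2 and 347.6. Cafeteria replicates 1 and 4 were the highest of the 10, and standard replicates 4 and 3 the lowest. The means were 323.3 ± 54.9 in the cafeteria group and 263.0 ± 70.6 in the standard group (SD, n = 5 each). Cdkn1a differed by 0.31 on the log2 scale (SE 0.19), with an exact two-sided permutation p of 0.175 and a limma adjusted p of 0.555. Without standard replicate 4 it was 0.16. The second Cdkn1a probeset (1387391_at) lay below the filter, at 19.2 to 58.7 on cafeteria arrays and 22.5 to 51.6 on standard arrays, and differed by −0.20 (SE 0.26) without the filter.

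Cdkn2c, the INK4 inhibitor p18, was level between the diets. Its signals were 732, 1089, 896, 905 and 1255 in the cafeteria arrays. They were 931, 970, 934, 846 and 1126 in the standard arrays. Both the highest and the lowest of the 10 values were cafeteria arrays. Its log2 difference was 0.00 (SE 0.14, 95% confidence limits −0.30 and 0.31, limma adjusted p = 0.996). A second probeset (1378711_x_at), of a type open to cross-hybridisation, lay below the filter and differed by 0.17 (SE 0.27).

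Cdkn2a encodes the INK4 inhibitor p16 and, from another reading frame, the Arf protein that stabilises p53. The annotation gave its probeset to the gene, not to either transcript. The probeset was dim, at percentile 29.9 of the probesets, and so was not tested above the filter. Its signals were 117.0, 62.5, 86.7, 64.3 and 103.4 in cafeteria replicates 1 to 5. They were 38.8, 28.2, 94.6, 15.9 and 42.9 in standard replicates 1 to 5. All 5 cafeteria arrays lay above 4 of the standard arrays, and standard replicate 3 lay among the cafeteria values. The means were 86.8 ± 23.9 in the cafeteria group and 44.1 ± 30.1 in the standard group (SD, n = 5 each).

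On the log2 scale Cdkn2a differed by 0.90 (SE 0.31), with 95% confidence limits of 0.21 and 1.59. The exact two-sided permutation test gave p = 0.0397, the lowest of the 10 member genes, each tested once. In the limma fit without the filter its adjusted p was 0.622, so it did not pass. In that fit 7.59% of 31042 probesets had an unadjusted p under 0.05, 4.26% with the cafeteria group higher, and 0% passed adjustment. The size depended on the pseudocount, at 1.15 with a pseudocount of 1 and 0.58 with 48.93. Leaving out standard replicate 3 gave 1.16 (exact permutation p = 0.00794, the smallest that 5 against 4 arrays allow). Leaving out any other standard array, or cafeteria replicate 1, 3 or 5, gave an exact permutation p from 0.0556 to 0.0794 with the difference between 0.69 and 0.92.

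Cdkn2b, the INK4 inhibitor p15, lies beside Cdkn2a on chromosome 5 in the RefSeq annotation of assembly GRCr8, with a single gene model between them. It was the dimmest member, at percentile 10.6. Its signals ran from 11.4 to 59.9 on cafeteria arrays and from 5.98 to 36.0 on standard arrays. Cdkn2b differed by 0.33 on the log2 scale (SE 0.32, exact permutation p = 0.397), and 0.08 without cafeteria replicate 5, the highest array. The neighbours therefore differed in the same direction, with Cdkn2b inside the spread of the arrays. A value this dim carries little information on the gene's level.

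Cafeteria replicate 5 was most often at the edge of the members' values. It was the highest or the lowest of the 10 arrays for 9 of the 15 probesets, against 0 to 4 for each other array. It was highest for 1371643_at and 1371150_at of Ccnd1, for Ccnd2, for Cdkn2b and for both probesets of Cdkn2c, and lowest for both probesets of Cdkn1b and for Cdk6. Some of the 9 are thus probesets of the same gene, and Cdkn2b, Cdk6 and 1378711_x_at of Cdkn2c lay below the filter. How often this array was the extreme over all probesets is not given here, so the count is not shown to be particular to the members. The same array had the highest mean over 13 dividing-cell genes, at a log2 value of 9.11, where the other cafeteria arrays had 8.55 to 8.67 and those of standard chow 8.42 to 8.55. It also had the highest mean of the 7 beta cell markers, at 13.79, against 13.41 to 13.53 in the other cafeteria arrays and 13.44 to 13.57 under standard chow. Cafeteria replicate 5 was highest for the endothelial mean (10.42) and the other endocrine mean (14.86) as well. For the duct, acinar, stromal and immune means it was not the highest array. Its part in the member differences is given by the fits without it: the log2 difference was then 0.13 for Ccnd2, 0.03 for the brightest Ccnd1 probeset, −0.09 for Cdkn1b, 0.33 for Cdkn1a, 0.05 for Cdk4 and −0.09 for Cdkn2c. It was 0.11 for 1371150_at of Ccnd1, −0.13 for the dimmer Cdkn1b probeset and 0.07 for Cdk6.

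**Figure D3:**
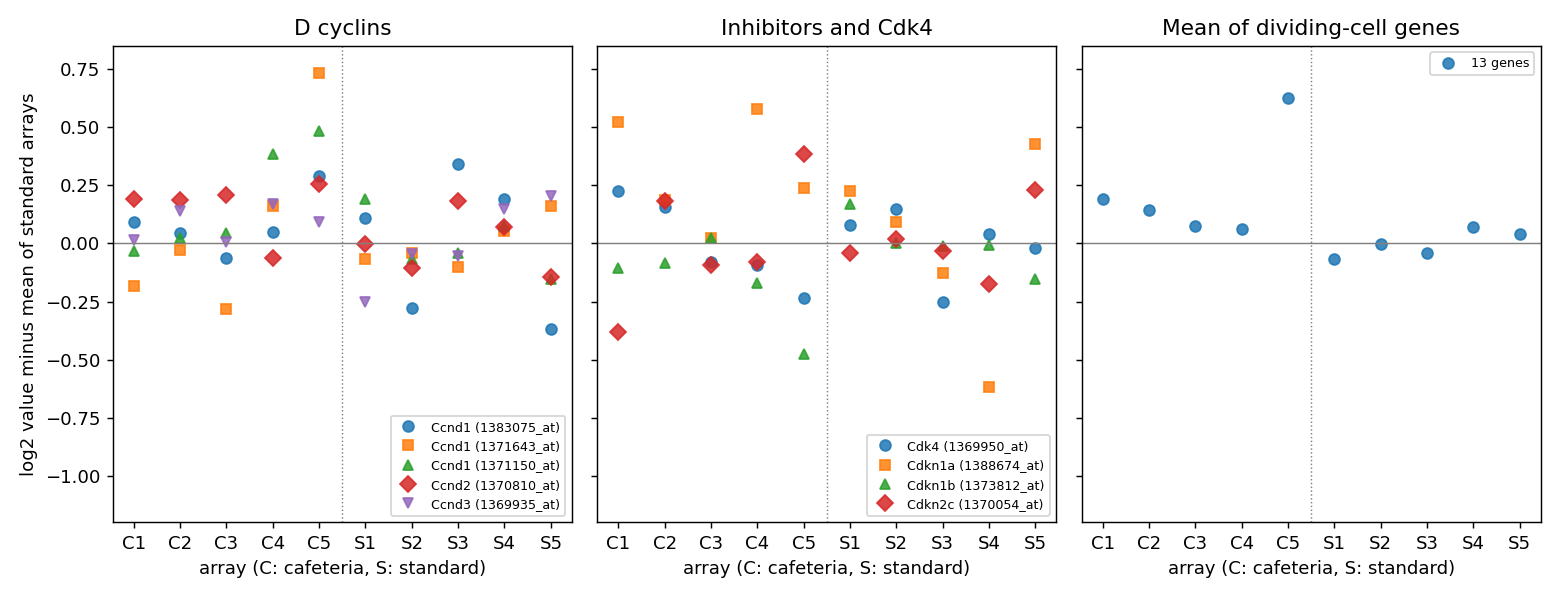
Log2 value minus the mean of the standard arrays (y axis) for each array (x axis; C1 to C5 cafeteria, S1 to S5 standard), for the D cyclin probesets above the filter, for the brightest probesets of 3 inhibitors and Cdk4, and for the mean of 13 dividing-cell genes. C5 is highest for Ccnd2, 2 of the 3 Ccnd1 probesets, Cdkn2c and the dividing-cell mean, and lowest for Cdkn1b.

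Other cell types and RNA quality also varied over the arrays. The mean log2 value of 9 immune markers on the array, of 10 listed, was 7.70 to 8.96 on cafeteria arrays and 7.82 to 9.44 on standard arrays. Their summed signal ran from 3549 to 10885 in the cafeteria group and from 3881 to 14265 in the standard group. The 7 acinar markers summed to 3092 to 16453 on cafeteria arrays and 6803 to 16378 on standard arrays, and no marker was listed at 0. Between the diets the immune mean differed by −0.75 and the acinar mean by −0.40 on the log2 scale. Those of other endocrine, duct, endothelial and stromal cells differed by 0.23, 0.08, 0.04 and 0.05. With the immune mean as a covariate Ccnd2 differed by 0.19 and Cdkn1a by 0.34, and with the acinar mean by 0.11 and 0.43. The ratio of the 3 prime to the 5 prime GAPDH control probeset, which rises with degraded RNA, was 0.964 to 1.12 on cafeteria arrays and 1.00 to 1.26 on standard arrays. Every standard array except replicate 2 lay above all cafeteria arrays, and the log2 ratio differed by −0.21 between the diets. A fit with this covariate therefore cannot fully separate the ratio from diet. With the log2 ratio as a covariate the difference was 0.40 (SE 0.15) for Ccnd1 and 0.29 (SE 0.12) for Ccnd2. In the same fit Cdk4 differed by −0.15. Neither D cyclin passed in that fit (limma adjusted p = 0.441 for Ccnd1 and 0.455 for Ccnd2).

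The partners of the gate are the E-type and A-type cyclins, Cdk2, the retinoblastoma family, the E2F factors and their helpers. Of 22 listed, 20 were on the array and 18 were tested. By limma 0 passed, 12 were higher and 6 lower in the cafeteria group, 1 in each direction at an unadjusted p under 0.05, and the median log2 difference was 0.04. Over all probesets tested, 51.4% were higher. The unadjusted p was under 0.05 for 5.51% with the cafeteria group higher and 4.91% with it lower, so these counts do not single out the partners. Ccne1, the cyclin that follows the D cyclins, averaged 125.9 ± 12.3 in the cafeteria group and 99.3 ± 26.9 in the standard group (SD, n = 5 each), a log2 difference of 0.33 (SE 0.15, limma adjusted p = 0.468). Cks1b, which helps the ligase that degrades p27, differed by 0.35 (SE 0.16), and E2f1, an activating E2F, by 0.28 (SE 0.14). Rb1, the retinoblastoma gene, averaged 799.4 ± 66.9 in the cafeteria group and 939.0 ± 123.4 in the standard group (SD, n = 5 each), a log2 difference of −0.22 (SE 0.10, limma adjusted p = 0.480). Tfdp2, a partner that E2F factors need to bind DNA, differed by −0.33 (SE 0.15). All 5 had overlapping groups, and without cafeteria replicate 5 the count at an unadjusted p under 0.05 was 0 in each direction. The share over all probesets in that fit is not given here.

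Of 14 listed regulators of the members, 13 were on the array and 12 were tested. By limma 0 passed, with 6 higher and 6 lower and a median log2 difference of 0.04. Over all probesets tested, 51.4% were higher and 10.4% had an unadjusted p under 0.05. Among the 12 regulators 1 was below that p. It was Gsk3b, a kinase that marks D cyclins for degradation, which differed by −0.22 (SE 0.10, limma adjusted p = 0.461). Stat5a, which acts below the prolactin receptor, differed by 0.20 (SE 0.09). Klf4, an activator of Cdkn1a, differed by −0.20 (SE 0.14), Smad3 of the TGF-beta pathway by −0.12 (SE 0.09), and Fbxw7, which marks cyclin E for degradation, by −0.30 (SE 0.24). Men1, which maintains Cdkn1b and Cdkn2c in mouse islets, differed by 0.09 (SE 0.10). Ezh2, which keeps Cdkn2a silent in young mouse beta cells, differed by 0.09 (SE 0.14). Myc lay below the filter, at 33.0 to 76.0 on cafeteria arrays and 46.8 to 185.5 on standard arrays.

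The p53 response genes stand beside Cdkn1a as other targets of the same factor. Of 13 listed, 10 were on the array and 9 were tested. By limma 0 passed, and 3 were higher and 6 lower, with a median log2 difference of −0.05, where 51.4% of all probesets tested were higher. Zmat3 differed by −0.21 (SE 0.12), Ddit4 by −0.20 (SE 0.11), Sesn1 by −0.18 (SE 0.14), Gadd45a by −0.09 (SE 0.09) and Plk3 by 0.19 (SE 0.16). Mdm2, the feedback inhibitor of p53, averaged 760.6 ± 96.5 in the cafeteria group and 787.4 ± 111.5 in the standard group (SD, n = 5 each). Cdkn1a had a positive difference beside a list whose median was negative; the list itself was not tested.

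The dividing-cell genes lie downstream of the gate. Of 14 listed, 13 were on the array and tested, and by limma 0 passed. In the cafeteria group 12 were higher and 1 lower, 4 of the higher ones at an unadjusted p under 0.05, with a median log2 difference of 0.21. Of all probesets tested 51.4% were higher, and 5.51% were higher at an unadjusted p under 0.05. The 13 genes were read on the same arrays, so they do not count as independent. Cdk1, the mitotic kinase, averaged 437.6 ± 157.8 in the cafeteria group and 289.6 ± 31.0 in the standard group (SD, n = 5 each), a log2 difference of 0.51 (SE 0.20, limma adjusted p = 0.440). Tyms, which makes thymidylate, differed by 0.40 (SE 0.14), the topoisomerase gene Top2a by 0.40 (SE 0.17), and the mitotic cyclins Ccnb1 and Ccnb2 by 0.39 (SE 0.18) and 0.32 (SE 0.15). Without cafeteria replicate 5 the median was 0.11, with 11 of 13 higher and 2 at an unadjusted p under 0.05. The share over all probesets in that fit is not given here, so the count of 2 is not shown to exceed it. The named genes then differed less, by 0.35 for Tyms, 0.34 for Cdk1, 0.24 for Top2a, 0.22 for Ccnb1 and 0.20 for Ccnb2. This list had a greater median than the members, and the difference between the lists was not tested.

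**Figure D4:**
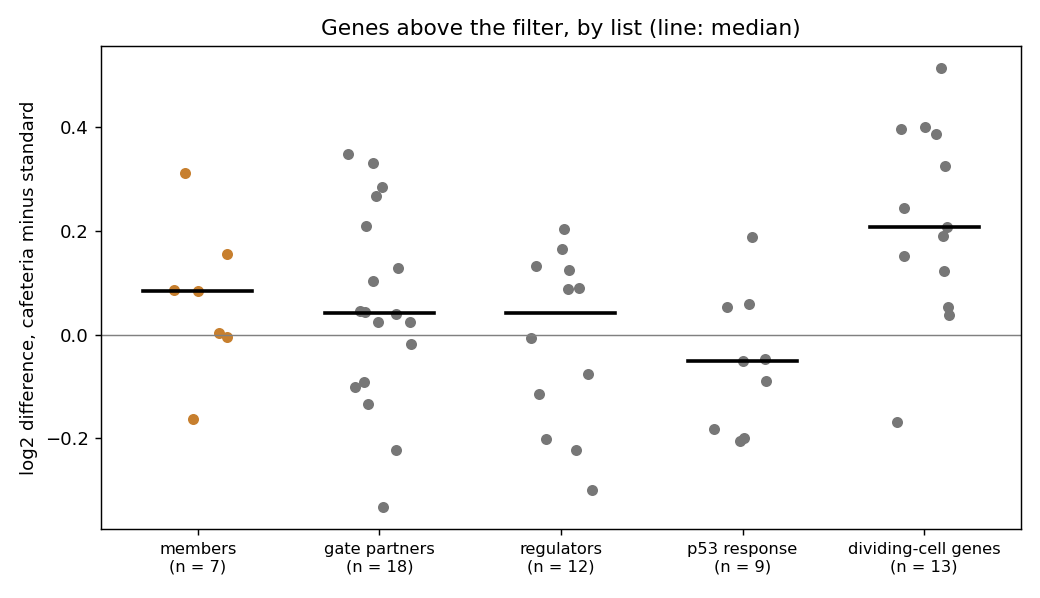
Log2 difference, cafeteria minus standard (y axis), of each gene above the filter in the members and in 4 related lists (x axis), with the median as a line. The members' median is 0.08 and that of the dividing-cell genes 0.21; no point passed the adjusted threshold.

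Among the 10300 other genes above the filter, those whose values followed Ccnd2 most closely over the 10 arrays, once each group's mean had been subtracted, were Tbkbp1 (Pearson's r = 0.949), 2810025M15Rikl (0.923) and Rimbp2 (0.920). For Cdkn1a they were Tti1 (0.911), Flt1 (0.886) and Lmo4 (0.879). Flt1 is a receptor of endothelial cells and stands in the endothelial marker list. These are the highest of many values from 10 arrays that share a scaling, and they are given as a description only.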

How the data were processed

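The deposited values are linear intensity signals from 10 arrays. The submitters' processing notes name MAS5, with no version, and the trimmed mean of each array lay between 500.14 and 500.16, so the authors had scaled the arrays. Genes came from the platform annotation, and all 10 members matched the RefSeq table of assembly GRCr8. The array table and its annotation name no genome build, so no coordinates are given. Signals were analysed as log2(value + 14.15), the 10th percentile of all values. Probesets above the 40th percentile of mean log2 value were tested for cafeteria minus standard by lmFit and eBayes of limma 3.58.1 in R 4.3.3, with Benjamini-Hochberg adjustment over all 18625. The fit had 8 residual and 3.11 prior degrees of freedom. Members below the filter were fitted over all 31042 probesets. Single values were also tested exactly over the 252 divisions of 10 arrays (smallest p 0.00794). The script was tested on simulated data. The number of arrays limits the precision.

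The text describes all probesets of the members, leading with the brightest, and names up to 5 genes of lowest p from each related list. Men1, Ezh2, Myc and Mdm2 were picked with their values already seen. The members, lists and rules were chosen with earlier results of these data known. Alternatives were other pseudocounts, filters, normalizations and variance models, weights per array, a replicate block, covariates, averaging the probesets of each gene, and fits without each array in turn.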

Additional observations from a re-analysis of the deposited data

Results flagged for a closer look

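Dixon's criterion for a value far from its group marked 1 of 30 sets of 5 arrays (15 probesets in both diets), where chance marks about 1 in 20. Cafeteria replicate 4 was lowest for Ccnd2, at a log2 value of 14.04, with the other cafeteria arrays between 14.29 and 14.36. Without it the log2 difference of Ccnd2 was 0.21 (SE 0.09, limma adjusted p = 0.546), which did not pass.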

How the results depend on the processing

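There were 23 other settings, 10 of them with 1 array left out. In the 22 that counted probesets 0 member probesets passed the adjusted threshold, and over all 23 the lowest limma adjusted p of a member gene was 0.390. Of 161 values of the 7 tested genes 146 kept their direction and 15 turned, those of Cdk4, Cdkn2c or Ccnd1. Cdk4 turned to 0.016 with array weights, was −0.154 with the GAPDH ratio as a covariate and ran from −0.067 to 0.053 without single arrays; Cdkn2c turned to −0.035 with median centring and −0.013 with array weights and ran from −0.093 to 0.099; Ccnd1 ran from −0.0083 (without standard replicate 5) to 0.169. Member probesets at an unadjusted p under 0.05, 0 as reported, numbered 1 without the filter or with it at the 20th percentile (Cdkn2a), 2 with the GAPDH ratio as a covariate (Ccnd1, Ccnd2), 1 with the acinar mean as a covariate (Cdkn1a), and 0 to 1 without single arrays. That 1 was Ccnd2 without cafeteria replicate 4 and Cdkn1a without standard replicate 5. Of all probesets 10.4% were under 0.05 unadjusted in the main fit and 7.59% without the filter. For the other settings that share is not given here, so these counts are not shown to exceed it. Over all probesets 0 to 1 passed without single arrays, the one being Emp1 without standard replicate 2. With the replicate number as a block, the count of probesets past the threshold was 0. Whole arrays all correlated closely, with Pearson's r between 0.9585 and 0.9732. The r used to look for a link between same-numbered arrays ran from −0.002 to 0.296, and so is not a correlation of whole array signals. By that measure 3 of 5 matched their own number best, a hint from the data of a link. Since 2 of these 5 values were near 0, and the labels name no shared batch, the arrays were not treated as paired. The cause of these shifts was not tested.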
